A study of Mus musculus with 10 samples.

Results

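To address how the 2 repressive histone marks divide the genome of Arid1a-deficient hepatocytes, the H3K9me3 and H3K27me3 peak lists of knockout (KO) AB17 cells were set against each other on the 19 autosomes. The members were all listed peaks on these chromosomes, each given by its summit, the base of highest signal, which made 131430 H3K9me3 and 85640 H3K27me3 summits, or 217070 of the 819400 peaks listed in the whole series. AB17 is a line of primary hepatocytes from a C57BL/6 mouse with both Arid1a alleles flanked by loxP sites (Arid1a fl/fl), and it carries SV40 large T antigen and H-Ras V12D in every group. Infection with Ad-Cre, an adenovirus encoding Cre recombinase, gave the KO cells, and infection with Ad-GFP gave the wildtype (WT) cells. It is a single transformed line, which limits it as a model of liver. Each mark was profiled by chromatin immunoprecipitation and sequencing (ChIP-seq) in 1 library per genotype, so the differences rest on single libraries and carry no p-value. The WT lists of the same marks held 141657 H3K9me3 and 108777 H3K27me3 autosomal summits and are set beside the KO values where they differ.

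H3K9me3 is placed by SETDB1, which KRAB zinc finger proteins recruit through TRIM28, and by the SUV39H enzymes at pericentromeric satellites, and it is bound by HP1 proteins in constitutive heterochromatin. H3K27me3 is placed by Polycomb repressive complex 2, whose catalytic subunit is EZH2 or EZH1, and it covers CpG-rich starts of developmental genes that a cell type does not use. The marks are generally held to occupy different kinds of silent chromatin, one rich in repeats and the other in unmethylated CpG islands.

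Read depth is unknown from the lists, and the number of summits rises with depth and antibody efficiency as well as with the extent of a mark. Each summit carried a −log10 q-value, with a median of 2.47 for H3K9me3 and 2.75 for H3K27me3 in KO cells. Few summits were strong. A value of at least 5 was reached by 6242 H3K9me3 summits (4.75%) and 10122 H3K27me3 summits (11.8%), and a value of at least 10 by 289 and 1744. The q-values took few distinct levels, the 10 commonest covering 74.2% of the H3K9me3 summits. The lists cannot show the Cre-mediated deletion itself, since no KO library of Arid1a or of its transcripts was analysed here. Neither mark had a summit within 2 kb of the Arid1a start in KO cells.

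The reference sequence was read at the strongest summits of each class, which are extremes and do not stand for their class. Over all summits the median ratio of observed to expected CpG was 0.18 for H3K9me3 alone. It was 0.19 for shared H3K9me3 summits and for H3K27me3 alone. Repeat bases held 51.3%, 32.1% and 20.3% of these summits. For each class the highest summit on 3 different chromosomes was taken, and 8 of these 9 windows are printed with 60 bases on each side (build GRCm38, the + strand, 121 bases, 5′ to 3′), and capitals mark CpG dinucleotides, the substrate of DNA methylation and the feature that defines CpG islands. Summits with H3K9me3 and no H3K27me3 within 1 kb had 1 or 2 CpG each, and those on chromosomes 10 and 2 lay in sequence masked as repeats over 100% and 93.4% of the window. The chromosome 10 and 5 sites were intergenic, the latter 3089 bp upstream of the mucin gene Muc3, and the chromosome 2 site lay in an exon of Gm10801, a predicted gene.
H3K9me3 alone, chr10:3112782-3112902: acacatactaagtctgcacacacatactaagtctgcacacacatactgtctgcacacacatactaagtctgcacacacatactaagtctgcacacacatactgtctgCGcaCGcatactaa
H3K9me3 alone, chr5:137152351-137152471: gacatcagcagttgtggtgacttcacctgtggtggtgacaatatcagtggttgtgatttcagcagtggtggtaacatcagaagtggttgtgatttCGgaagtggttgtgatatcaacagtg
H3K9me3 alone, chr2:98663803-98663923: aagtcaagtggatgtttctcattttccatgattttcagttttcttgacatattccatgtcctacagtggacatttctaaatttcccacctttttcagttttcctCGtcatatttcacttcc
The 3 windows taken for H3K27me3 alone held 2 to 7 CpG and a GC content of 58.7% to 62.8%, so the number of CpG did not set them all apart from the H3K9me3 windows, and 2 of them are printed. The chromosome 14 site lay 290 bp upstream of the start of Gm3667, and the chromosome 8 site in an intron of Gm20388. The chromosome 8 window had 19 exact copies in the reference and the chromosome 14 window 4, so reads there could come from any copy, while each of the other windows printed here occurred 1 time.
H3K27me3 alone, chr8:123563586-123563706: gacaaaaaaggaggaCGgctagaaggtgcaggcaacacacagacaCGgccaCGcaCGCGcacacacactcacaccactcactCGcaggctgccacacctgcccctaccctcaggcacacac
H3K27me3 alone, chr14:6890192-6890312: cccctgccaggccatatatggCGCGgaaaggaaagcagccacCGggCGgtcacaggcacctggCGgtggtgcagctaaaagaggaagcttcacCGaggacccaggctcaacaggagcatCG
Summits with both marks were ordered by the lower of the 2 values. The 3 printed sites held 4 to 13 CpG, none was mostly repeat, and 2 were intergenic while the chromosome 16 site lay in an intron shared by Cmss1 and Filip1l.
both, chr3:5860512-5860632: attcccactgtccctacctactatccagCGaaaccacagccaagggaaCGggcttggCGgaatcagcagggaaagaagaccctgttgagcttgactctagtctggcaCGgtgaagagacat
both, chr11:109011811-109011931: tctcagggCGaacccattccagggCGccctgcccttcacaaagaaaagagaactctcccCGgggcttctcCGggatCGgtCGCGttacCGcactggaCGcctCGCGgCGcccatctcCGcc
both, chr16:57391387-57391507: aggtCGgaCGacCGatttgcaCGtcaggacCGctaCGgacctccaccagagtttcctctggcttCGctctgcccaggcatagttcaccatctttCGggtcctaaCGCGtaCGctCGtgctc

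In KO cells few single summits lay near a summit of the other mark, at shares not far under those of all autosomal bases. Of the 131430 H3K9me3 summits, 6525 had a H3K27me3 summit within 1 kb, which is 4.96% (95% Wilson interval 4.85% to 5.08%), whereas 5.86% of all known autosomal bases lay that close to a H3K27me3 summit. In the other direction, 7297 H3K27me3 summits (8.52%, 8.34% to 8.71%) had a H3K9me3 summit within 1 kb, against 9.76% of the bases. The intervals cover counting error only, and neighbouring summits are not independent. The ratio of the summit share to the base share was 0.848 for H3K9me3 and 0.873 for H3K27me3, and it was under 1 on 18 of the 19 autosomes in either direction. It was lowest on chromosome 13, at 0.350 and 0.353, and highest on chromosome 14, at 1.71 and 1.63. Because strings of summits from 1 domain count many times, only the highest summit of each run of neighbours at most 3 kb apart was also kept in both lists. Of these, 2.90% of H3K9me3 and 7.36% of H3K27me3 summits had a kept summit of the other mark within 1 kb. Both shares were 1.03 times the base share. Whole runs were not overlapped, so these shares do not give how many runs meet the other mark. The side of the genome background on which the overlap fell therefore changed with how clustered summits were counted.

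Chromosome 14 stood apart through its first 10 Mb. There, 85 of 405 H3K9me3 summits (21.0%) were shared, against 2.01% on the rest of the chromosome, and these 85 were 64.4% of the shared H3K9me3 summits of chromosome 14. This stretch holds multi-copy predicted genes such as Gm3594, Gm3667 and 2610042L04Rik, whose copies can exchange reads. Left out, it moved the genome-wide H3K9me3 share only to 4.92%.

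**Figure D1:**
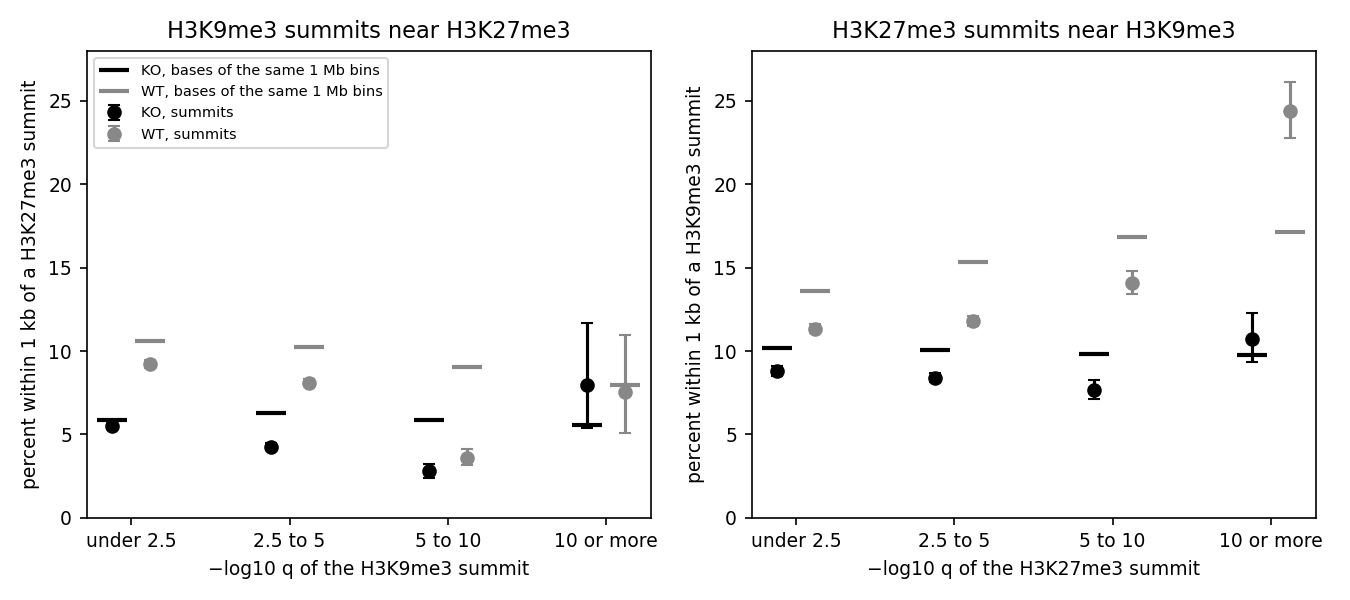
Percent of summits with a summit of the other mark within 1 kb, by the −log10 q-value of the summit, for H3K9me3 (left) and H3K27me3 (right) in KO (black) and WT (grey) cells. Points carry 95% Wilson intervals, and horizontal dashes give the percent of bases within the same distance in the 1 Mb bins that hold those summits. KO H3K9me3 summits fell from 5.50% to 2.79% before rising to 7.96% in the strongest class.

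Next, the overlap was divided by strength. For H3K9me3 the shared percent was 5.50% of summits with a −log10 q-value under 2.5, 4.28% from 2.5 to 5, 2.79% from 5 to 10 and 7.96% at 10 or more. The base share in the same 1 Mb bins was nearly level across these classes, between 5.54% and 6.26%. The ratio of the observed to this local share was thus 0.94, 0.68, 0.47 and 1.44. For H3K27me3 the shared percent was 8.79%, 8.39%, 7.67% and 10.7%, and its ratio to the local share ran 0.86, 0.84, 0.78 and 1.10. The gap was widest among H3K9me3 summits of 5 to 10. In the strongest class the intervals, 5.36% to 11.7% for H3K9me3 (23 of 289 summits) and 9.36% to 12.3% for H3K27me3, included the local base share.

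Sites at which both marks were strong were few. At 52 H3K9me3 summits both marks reached a −log10 q-value of 5, and at 11 both reached 10. At these 11 the H3K9me3 and H3K27me3 summits lay a median of 9 bp apart, all within 100 bp, compared with a median of 359 bp over the 6473 weaker shared summits, of which 16.9% lay within 100 bp. All 11 had a summit of both marks within 1 kb in WT cells as well, none lay at a repeat base, none had an Arid1a, Brg1 or Ctcf summit within 1 kb in WT cells and 1 had a Rad21 summit. Of the autosomal bases, 5.47% lay that close to Arid1a, 6.23% to Brg1, 6.66% to Ctcf and 7.35% to Rad21. The factor counts are near these shares for a group of 11 sites. The highest, on chromosome 3, reached 126.0 for H3K9me3 and 84.2 for H3K27me3, the maximum of each list, with the summits 4 bp apart. The chromosome 11 site reached 98.0 and 59.7, and the chromosome 16 site 65.6 and 57.9. Of the 52 sites, 19 (36.5%) lay at a repeat base, 27 (51.9%) had a WT H3K9me3 summit and 13 a Ctcf summit within 1 kb, so they were a mixed group. No list of artefact regions was applied to these peak lists, and whether the 11 sites belong to such regions was not tested. For contrast, of the 266 H3K9me3 summits of at least 10 without H3K27me3, 69.9% lay at a repeat base and 86.8% recurred in the WT H3K9me3 list.

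Shared sites lay near WT H3K27me3 summits more often than near WT H3K9me3 summits. They were chosen for lying within 1 kb of a KO H3K27me3 summit, and that list recurred more in WT cells. The order therefore follows in part from the choice and does not show which class the sites resemble. Of the KO H3K9me3 summits with both marks, 64.1% lay within 1 kb of a WT H3K27me3 summit and 20.9% within 1 kb of a WT H3K9me3 summit, while 14.1% had both and 29.2% neither. KO H3K9me3 summits alone had a WT H3K9me3 summit nearby in 34.1% of cases and a WT H3K27me3 summit in 3.33%. KO H3K27me3 summits alone had a WT H3K27me3 summit in 68.3% of cases. Of the autosomal bases, 10.5% lay within 1 kb of a WT H3K9me3 summit and 7.44% within 1 kb of a WT H3K27me3 summit, so both lists recurred above their base share and H3K27me3 by the larger factor. The shared sites were not strong on the whole: the median H3K9me3 value was 2.47 both at shared and at unshared summits, and the median H3K27me3 value was 2.75 at both. The values took few distinct levels, so equal medians are a coarse comparison. By class, the shared percent of H3K9me3 summits fell from 5.50% under 2.5 to 2.79% from 5 to 10 and was 7.96% at 10 or more.

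The SWI/SNF subunits Arid1a and Brg1, the ATPase of the complex, had been profiled in WT cells only. A WT Arid1a summit lay within 1 kb of 7.16% of the KO H3K9me3 summits alone, 3.51% of the shared H3K9me3 summits and 2.45% of the H3K27me3 summits alone, against 5.47% of bases. For Brg1 these shares were 7.62%, 3.33% and 2.22%, against 6.23% of bases. Rad21, a cohesin subunit, and Ctcf showed the opposite order. Rad21 lay near 7.08% of H3K9me3 alone, 10.5% of shared and 11.4% of H3K27me3 alone summits, against 7.35% of bases. Ctcf lay near 5.88%, 9.67% and 10.5%, against 6.66% of bases.

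Then the marks were compared at the scale of 1 Mb. Over 2403 autosomal bins with at least 50% known bases, the H3K9me3 and H3K27me3 densities of KO cells were nearly unrelated, with a Spearman correlation of 0.16 and a Pearson correlation of 0.03. Within chromosomes the Spearman value ran from −0.36 on chromosome 10 to 0.35 on chromosome 15, positive on 14 and negative on 5, with a median of 0.08. In WT cells it was positive on all 19, with a median of 0.53. These values describe bins of single libraries, whose neighbours share domains and base composition. The H3K27me3 density was the more uneven. Its median was 13 summits per Mb with the lowest 10% of bins at 0 and the highest 10% at 107.8 or more, and 480 bins (20%) held none. H3K9me3 had a median of 50 per Mb, ran from 20 to 92.8 between the same limits, and was missing from 1 bin.

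**Figure D2:**
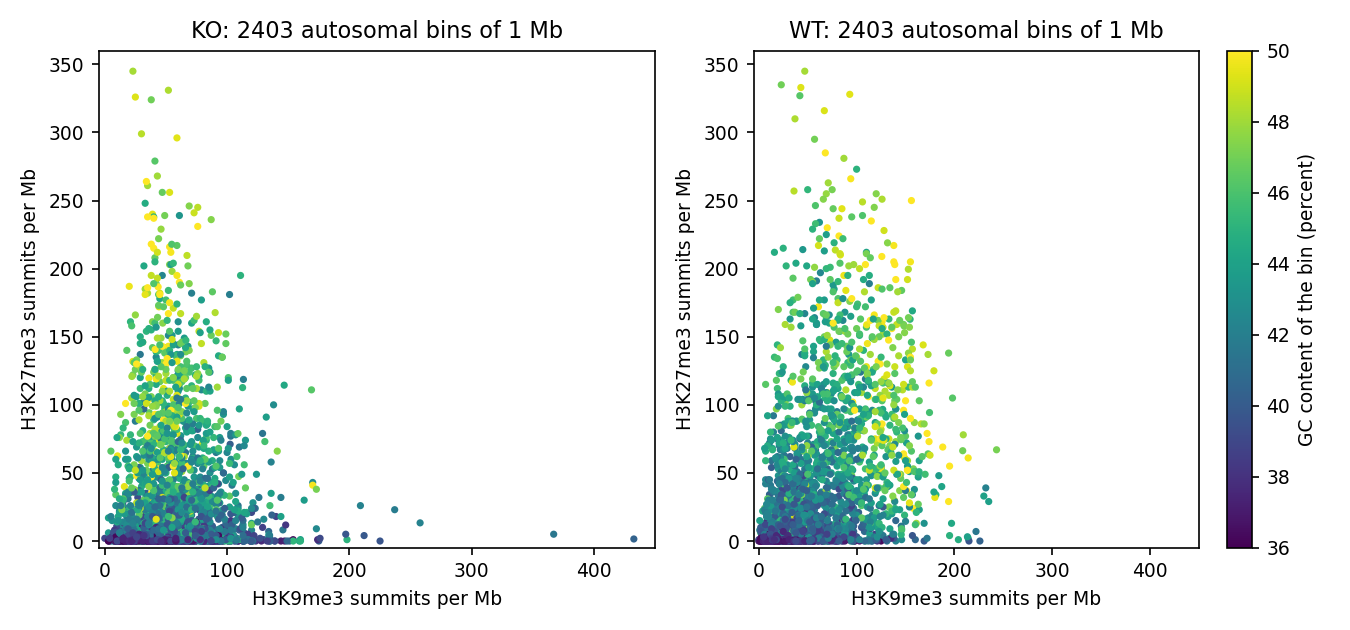
H3K9me3 (horizontal axis) against H3K27me3 (vertical axis) summits per Mb in KO (left) and WT (right) cells, 1 point per autosomal 1 Mb bin, coloured by the GC content of the bin. The highest KO density was 432.5 per Mb for H3K9me3 and 345 per Mb for H3K27me3. KO bins in the highest 10% for H3K27me3 had a median H3K9me3 density of 53 per Mb, against 50 in the rest.

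Base composition separated the marks at this scale. Bin density correlated with GC content at 0.79 (Spearman) for H3K27me3 and at 0.15 for H3K9me3, and with repeat content at −0.56 and 0.06. When the bins were put into 5 groups of rising GC content, the median H3K27me3 density rose through 0, 3, 16, 38 and 86 per Mb. The median H3K9me3 density was 38 in the group of lowest GC, 52.8, 55 and 58 in the next, and 50 in the group of highest GC. WT H3K27me3 followed the same course, from 0 to 108, but WT H3K9me3 rose steadily from 18 to 106. Of the 241 bins in the highest 10% for each mark in KO cells, 14 were the same, against 24.2 from the product of the shares, and in WT cells 49 were the same against 24.3. The KO bins highest in H3K27me3 had a median of 53 H3K9me3 summits per Mb, against 50 in the rest. Those highest in H3K9me3 had a median of 10 H3K27me3 summits per Mb, against 13 in the rest.

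The 3 bins richest in H3K9me3 held zinc finger gene clusters. They were neighbours on chromosome 4 between 145 and 148 Mb, at 258, 432.5 and 367 summits per Mb, and they held 3, 6 and 9 Zfp genes, among them Zfp986, Zfp600 and Zfp982. H3K27me3 reached 13.3, 1.5 and 5 per Mb in the same bins. The other two of the 5 highest were chromosome 5 at 104 to 105 Mb, with 237 H3K9me3 and 23 H3K27me3 summits per Mb and the gene Zfp951, and the last bin of chromosome 6, with 225 and 0. The bins richest in H3K27me3 held, among others, genes used in other tissues. Chromosome 9 at 45 to 46 Mb had 345 H3K27me3 and 23 H3K9me3 summits and holds Cd3e, a T-cell receptor component, and Scn2b and Scn4b, sodium channel subunits. Chromosome 8 at 12 to 13 Mb, with Sox1, a neural transcription factor, had 331 and 52. Chromosome 4 at 125 to 126 Mb, with the glutamate receptor gene Grik3, had 326 and 25. Chromosome 8 at 87 to 88 Mb, with Cbln1 and Zfp423, had 324 and 38, and chromosome 4 at 131 to 132 Mb, with Ptpru, had 299 and 30. The bin ranking high for both marks was chromosome 8 at 104 to 105 Mb, which holds Cdh5, the endothelial cadherin, and the Ces2 carboxylesterase cluster, with 111 H3K9me3 and 195 H3K27me3 summits. It was followed by chromosome 10 at 19 to 20 Mb, with Olig3 and Tnfaip3, at 102 and 181.

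Both marks formed strings of summits, which differed in length and in place. The H3K9me3 summits fell into 85188 runs of neighbours at most 3 kb apart, 72.2% of them single summits, and the H3K27me3 summits into 33537 runs, 47.5% single. Runs of at least 10 summits numbered 229 for H3K9me3, of which 78 overlapped a coding gene and 37 a Zfp gene, and 802 for H3K27me3, of which 434 overlapped a coding gene and 4 a Zfp gene. These counts compare the marks only. They were not set against the share of the autosomes in coding or Zfp genes, so they show no enrichment. Inside the long H3K9me3 runs H3K27me3 was sparse, with 22 summits or 5.77 per Mb against 35.7 over the autosomes. Inside the long H3K27me3 runs H3K9me3 stood at 40.8 per Mb against 54.9. The other mark was thus scarcer inside long H3K9me3 runs than inside long H3K27me3 runs. The longest H3K9me3 runs were chr4:147498792-147538973 over Zfp982 (26 summits), chr4:145790431-145827250 outside coding genes (28) and chr4:147168848-147204188 over Zfp991 (23), each without a H3K27me3 summit. The longest H3K27me3 runs were chr11:51374215-51431253 over Col23a1, a transmembrane collagen (31 summits with 3 of H3K9me3), chr9:43620161-43660978 outside coding genes (28 with 1) and chr2:103404583-103443952 over Elf5, an epithelial ETS factor (27 with 0).

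The bases at the summits differed strongly in repeat content. In KO cells 50.4% of H3K9me3 summits (50.1% to 50.6%) and 21.0% of H3K27me3 summits (20.8% to 21.3%) lay at a base masked as repeat, against 33.5% of autosomal positions taken evenly. The gap widened with strength. For H3K9me3 the share was 46.6% under 2.5, 54.4% from 2.5 to 5, 70.2% from 5 to 10 and 65.7% at 10 or more, while for H3K27me3 it was 23.2%, 21.0%, 15.1% and 9.40%. Median GC content over 501 bp at the summit was 43.9% for H3K9me3, 48.1% for H3K27me3 and 41.7% for autosomal windows. In the strongest class it was 48.7% and 56.6%. The ratio of observed to expected CpG did not separate the marks: its median rose from 0.17 to 0.39 over the H3K9me3 classes and from 0.19 to 0.43 over the H3K27me3 classes, and at 5 to 10 it was the higher for H3K9me3, 0.29 against 0.22. CpG-rich windows, with a ratio over 0.6, made up 29.4% of the strongest H3K9me3 and 30.9% of the strongest H3K27me3 summits. Shared H3K9me3 summits were intermediate, with 32.1% at repeats and a GC content of 46.9%.

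**Figure D3:**
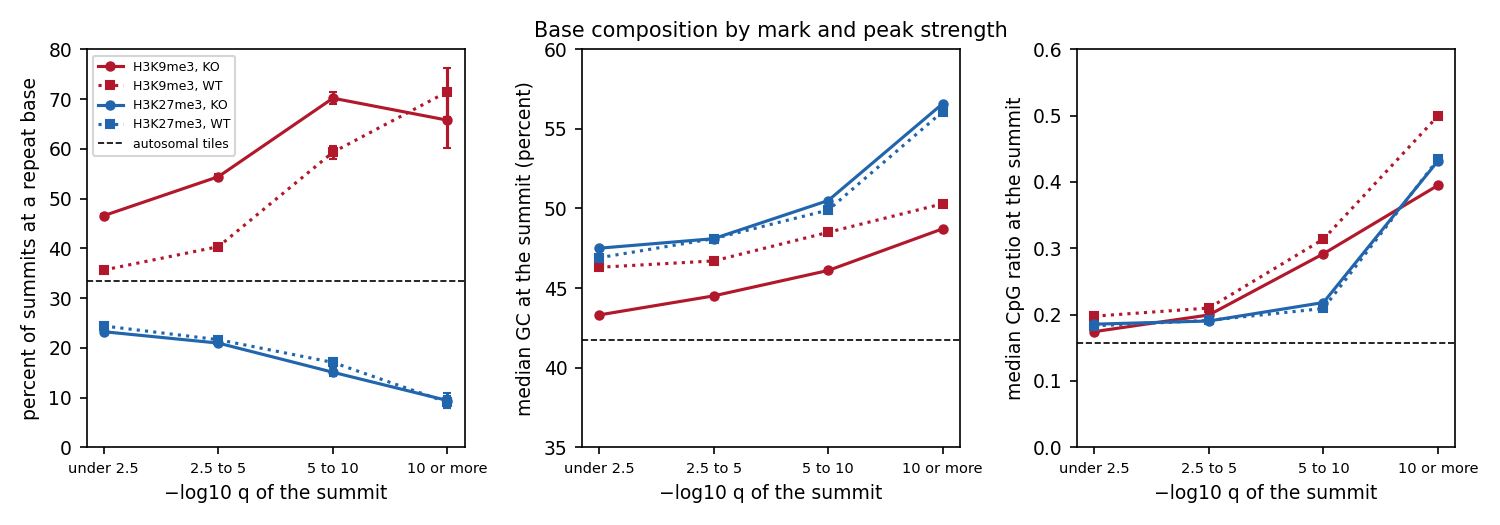
Percent of summits at a repeat base (left), median GC content of the 501 bp window (middle) and median ratio of observed to expected CpG (right) by −log10 q-value, for H3K9me3 (red) and H3K27me3 (blue) in KO (solid) and WT (dotted) cells. Dashed lines give autosomal windows, error bars on the left 95% Wilson intervals, and the middle axis starts at 35%. Repeat content rose with H3K9me3 strength, to 70.2% at 5 to 10 in KO cells, and fell with H3K27me3 strength, to 9.40%.

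WT H3K27me3 summits had nearly the same composition as KO H3K27me3 summits, with 22.3% at repeats and a GC content of 47.7%. WT H3K9me3 summits had 39.2% at repeats and a GC content of 46.7%, so the marks stood closer together in WT than in KO cells. Depth, antibody efficiency and genotype cannot be told apart in this contrast.

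To see how the marks fell on genes, summits within 2 kb of the outermost start were counted for 20807 protein-coding genes. In KO cells 3016 genes had H3K9me3, which is 14.5% of those examined, 4276 had H3K27me3 (20.6%), and 683 had both (3.28%). The product of the shares gave 620 genes with both, so the observed count was 1.10 times it. Of the 683, 429 (62.8%) had summits of the marks at most 1 kb apart. Genes with H3K9me3 at the start carried H3K27me3 in 22.6% of cases, and genes with H3K27me3 carried H3K9me3 in 16.0%. Neighbouring genes can share a summit, as Sowaha and Gm9945 did.

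**Figure D4:**
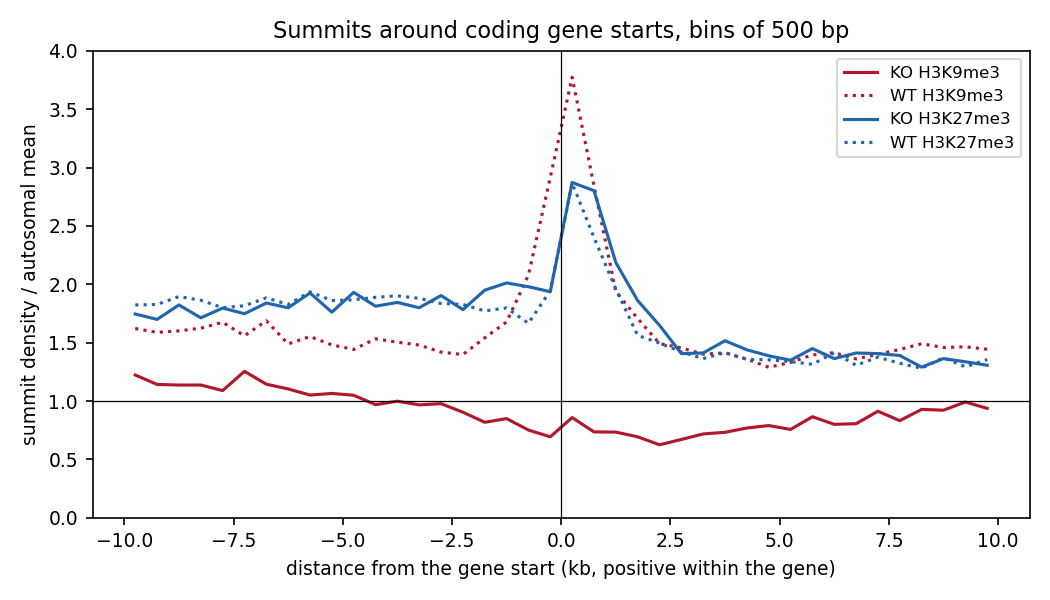
Summit density in 500 bp steps from 10 kb before to 10 kb after 20807 coding gene starts (horizontal axis, kb), divided by the autosomal mean of each list, for H3K9me3 (red) and H3K27me3 (blue) in KO (solid) and WT (dotted) cells. KO H3K27me3 peaked at 2.87 just inside the gene, and KO H3K9me3 stayed under 1 there.

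The profile around starts set the marks apart in KO cells. H3K27me3 stood at 1.94 times its autosomal mean in the 500 bp before the start and at 2.87 times in the 500 bp after it. H3K9me3 stood at 0.69 and 0.86 times its mean in the same windows and reached its lowest value, 0.63, at 2 to 2.5 kb inside the gene. In WT cells H3K27me3 peaked at the same place, but H3K9me3 also peaked at the start, at 3.77 times its mean. Accordingly 8423 WT genes had H3K9me3 (40.5%), 5019 had H3K27me3 (24.1%) and 1819 had both (8.74%), or 0.90 times the product of the shares. The WT starts with H3K9me3 only were also those with most factor summits, 68.6% having Brg1 and 75.8% Rad21 within 2 kb, whereas KO starts with H3K9me3 only had WT Brg1 in 49.4% and WT Rad21 in 56.1% of cases, close to the 47.9% and 54.5% of starts with neither mark. Starts with H3K27me3 only in KO cells had WT Brg1 in 14.8% of cases and those with both marks in 19%. Of the 683 KO starts with both marks, 250 had both in WT cells, 349 had H3K27me3 only, 37 had H3K9me3 only and 47 neither.

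Gene lists were read against the 20807 coding genes, of which 68.2% had neither mark in KO cells, 11.2% H3K9me3 only, 17.3% H3K27me3 only and 3.28% both. The share with both marks rises with the share of each mark in a list. A value above 3.28% alone does not show that the marks go together. Developmental regulators carried H3K27me3, in part together with H3K9me3. Among 179 developmental transcription factors in KO cells, 75 had H3K27me3 only, 29 both (16.2%, against 3.28% of all coding genes) and 8 H3K9me3 only. In all, 104 (58.1%) had H3K27me3, against 20.6% of coding genes, and 37 (20.7%) had H3K9me3, against 14.5%. Foxd3, a neural crest factor, had −log10 q-values of 7.82 for H3K9me3 and 25.6 for H3K27me3, with the summits 297 and 353 bp inside the gene, and in WT cells 6.43 and 32.2. Nkx2-4, a homeobox gene, had 4.44 and 18.8 and Zic4, a cerebellar zinc finger factor, 4.53 and 7.12. H3K27me3 without H3K9me3 was highest at Neurod2 (30.3), Lhx1 (29.8) and Sox10 (27.9), factors of neurons, kidney and head organizer, and glia. Among 62 genes of secreted developmental ligands, 38 had H3K27me3 only, 4 both and 1 H3K9me3 only. Ihh, a hedgehog ligand, reached 25.9 and Wnt3a 23.5 for H3K27me3 alone, and Wnt1 had 3.51 for H3K9me3 and 39.1 for H3K27me3. Of 39 Hox genes, which set position along the body axis, 7 had H3K27me3 only, 5 both and 5 H3K9me3 only. Hoxa13 had H3K27me3 at 21.3, Hoxc13 had 2.81 for H3K9me3 and 24.0 for H3K27me3, and Hoxb1 had H3K9me3 at 3.80. WT H3K9me3 was found at 28 of the 39 Hox starts (71.8%, against 40.5% of all starts) and KO H3K9me3 at 10 (25.6%, against 14.5%).

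**Figure D5:**
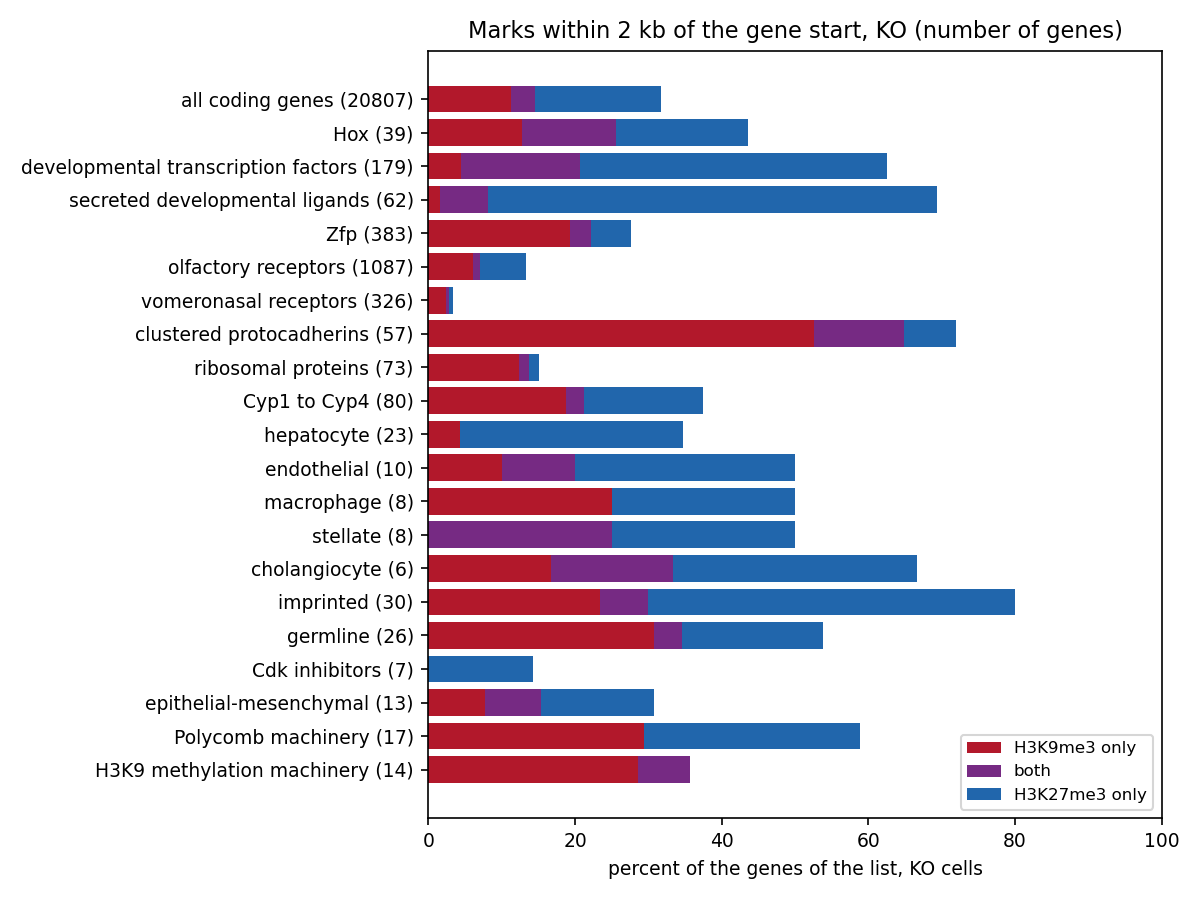
Percent of the genes of each list with H3K9me3 only (red), both marks (purple) or H3K27me3 only (blue) within 2 kb of the start in KO cells, with the number of genes in parentheses. The top bar gives all 20807 coding genes. Ligands and developmental factors were mostly blue, protocadherins and Zfp genes mostly red, and lists of under 30 genes rest on few starts.

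Zinc finger and clustered protocadherin genes carried H3K9me3. Among 383 Zfp genes, a family that includes many KRAB repressors of retroelements, 74 had H3K9me3 only at the start (19.3%, against 11.2% of all coding genes), 21 H3K27me3 only (5.48%, against 17.3%) and 11 both (2.87%, near the 3.28% of all). The marks differed over gene bodies too. There, 72.8% of Zfp genes held a H3K9me3 summit against 45.6% of all coding genes, at 132.6 against 45.0 summits per Mb, while H3K27me3 was in 9.14% of bodies against 23.7%. Zfp978 had the highest start value, 10.2, followed by Zfp433 (5.97) and Zfp993 (5.74). Zfp423, a developmental factor that is not of the clustered kind, had H3K27me3 only, at 26.9. Of 57 clustered protocadherins, cell adhesion genes of neurons, 30 had H3K9me3 only (52.6%, against 11.2%), 7 both (12.3%, against 3.28%) and 4 H3K27me3 only (7.02%, against 17.3%). In all, 37 (64.9%) had H3K9me3, against 14.5% of coding genes, and 11 (19.3%) had H3K27me3, against 20.6%. Pcdhga11 had H3K9me3 at 6.79, Pcdhgc5 at 6.26, and Pcdhac2 H3K27me3 at 11.1. In WT cells 25 had H3K9me3 only and 0 both. Many of these genes are paralogs, so the counting of reads between copies is uncertain.

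Olfactory and vomeronasal receptors, the largest families of sensory genes, had neither mark at more starts than coding genes at large, where the share was 68.2%. Of 1087 olfactory receptor genes, 942 had neither (86.7%), 66 had H3K9me3 only, 68 H3K27me3 only and 11 both. Of 326 vomeronasal receptor genes, 96.6% had neither, 8 had H3K9me3 only, 2 H3K27me3 only and 1 both. Olfr212 had the highest H3K9me3 value at 5.30 and Olfr284 the highest H3K27me3 value at 10.6. Of 73 ribosomal protein genes, which every cell uses, 9 had H3K9me3 only (12.3%, near the 11.2% of all coding genes), 1 H3K27me3 only (1.37%, against 17.3%) and 1 both. Rpl13a, at 3.02, was the highest of them for H3K9me3.

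Imprinted and germline genes were found with either mark. Of 30 imprinted genes, expressed from 1 parental allele, 15 had H3K27me3 only (50%, against 17.3% of all coding genes), 7 H3K9me3 only (23.3%, against 11.2%) and 2 both (6.67%, against 3.28%). In all, 17 (56.7%) had H3K27me3, against 20.6% of coding genes, and 9 (30%) had H3K9me3, against 14.5%. Dio3 (13.6), Cdkn1c (12.6) and Kcnq1 (10.7) led for H3K27me3. Nnat (7.94), Zrsr1 (3.21), Peg10 and Peg3 (both 3.11) led for H3K9me3, and Rasgrf1 had 2.47 and 9.29. The lists do not separate the alleles, so marks on opposite alleles could not be seen apart. Of 26 germline genes, 8 had H3K9me3 only (30.8%), while the 5 with H3K27me3 only (19.2%) and the 1 with both (3.85%) were near the shares of all coding genes. Tdrd1, of the piRNA pathway, had H3K9me3 at 5.39 and Dazl, a germ cell RNA-binding protein, at 4.53, while Dmrt1, a testis factor, had H3K27me3 at 19.

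Liver genes and markers of other cell types were examined as a check of the label, though a repressive mark is not a measure of expression and the line's identity could not be tested from these lists. Of 23 hepatocyte genes, 7 had H3K27me3 only, 1 H3K9me3 only and 0 both in KO cells. Fgg, a fibrinogen chain, had H3K27me3 at 7.12 and Hnf4a, the hepatocyte nuclear receptor, at 5.52, with WT values of 4.08 and 2.55. Values rank summits within a list, so these pairs do not show a gain. By count, H3K27me3 lay at 11 of the 23 hepatocyte starts in WT cells (47.8%) and at 7 in KO cells (30.4%). Of 80 Cyp1 to Cyp4 genes, which encode cytochrome P450 enzymes, 15 had H3K9me3 only (18.8%, against 11.2%), and the 13 with H3K27me3 only (16.2%) and 2 with both (2.5%) were near the 17.3% and 3.28% of all coding genes, with Cyp2s1 (3.11) and Cyp4x1 (10.7) the highest. Of 10 endothelial genes, 3 had H3K27me3 only, 1 H3K9me3 only and 1 both, which was Flt1 at 2.37 and 10.2. Of 8 macrophage genes, 2 had H3K27me3 only and 2 H3K9me3 only. Of 8 stellate cell genes, 2 had H3K27me3 only and 2 both, Reln (3.80 and 13.6) and Lrat (1.88 and 4.79). Of 6 cholangiocyte genes, 2 had H3K27me3 only, 1 H3K9me3 only and 1 both, Epcam at 1.88 and 12.6. Over all coding genes 31.8% of starts had a mark, and the 8 of 23 hepatocyte starts (34.8%) were near that share. By mark, H3K27me3 lay at 30.4% of the hepatocyte starts, against 20.6%, and H3K9me3 at 4.35%, against 14.5%. The other cell type lists hold 6 to 10 genes each, too few to set against the share of all coding genes.

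Genes of the silencing systems themselves were also examined. Of 17 Polycomb genes, 5 had H3K27me3 only, 5 H3K9me3 only and 0 both, or 58.8% with a mark against 31.8% of all coding genes. Cbx8 (30.1), Bmi1 (9.74) and Cbx2 (6.07), subunits of Polycomb repressive complex 1, carried H3K27me3, and Ring1 (4.28) and Suz12 (3.62) H3K9me3. Of 14 genes of the H3K9 methylation machinery, 4 had H3K9me3 only, 0 H3K27me3 only and 1 both, Setdb1, at 3.32 and 3.16, and the 35.7% with a mark was near that of all coding genes. By mark the list departed from all coding genes, with H3K9me3 at 35.7% against 14.5% and H3K27me3 at 7.14% against 20.6%. Of 7 Cdk inhibitor genes, 1 had a mark, which was H3K27me3 at Cdkn1c (14.3%). Of 13 genes of epithelial-mesenchymal transition, 2 had H3K27me3 only, Ocln (7.66) and Cdh1 (4.70), which encode junction proteins of epithelia, 1 H3K9me3 only and 1 both, and their 30.8% with a mark was near the 31.8% of all. Among the 10 genes the study singled out, Gsc, a homeobox gene, had H3K27me3 at 16.6, Pmp22 H3K9me3 at 2.25, and Six2 (3.11 and 14.6) and Rnf125 (3.11 and 1.47) both. Arid1a, Smarca4, Ctcf, Rad21, Atg10 and Cdh5 had neither.

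Among all coding genes, the highest H3K9me3 values without H3K27me3 lay mostly at predicted genes of repetitive sequence. Gm10801 on chromosome 2 reached 70.4, and Gm10715, Gm17535, Gm10721, Gm10717, Gm10719, Gm10718 and Gm10720, which lie next to each other on chromosome 9 between 3013140 and 3038316, reached 14.2 to 58.6. Gm21738 on chromosome 14 reached 29.4 and Sfi1, a centrin-binding protein gene with 3 summits at its start, 21.9. The 10 had WT H3K9me3 at 11.9 to 44.0, and 9 of them also had a WT Arid1a or Brg1 summit within 2 kb. Of all KO starts with H3K9me3 only, 52.0% had H3K9me3 only and 3.69% both marks in WT cells. WT Arid1a lay at 45.1% of these starts and WT Brg1 at 49.4%. No list of artefact regions was applied, and whether these 10 starts belong to such regions was not tested. The highest H3K27me3 values without H3K9me3 lay at Gm3667 (39.0), Onecut3 (38.3), a neural homeobox factor, Phf21b (37.8), Plk5 (35.4) and Nr2e1 (34.6), which encodes the neural stem cell receptor TLX. Ostm1 shared the Nr2e1 summit, and Lbx1, Efna3, Adgrb1 and Tmem151b followed at 31.8 to 33.6. Of these 10 genes, 9 had H3K27me3 in WT cells too, Tmem151b being the exception. This is near the share over all KO starts with H3K27me3 only, of which 59.0% had H3K27me3 only and 27.7% both marks in WT cells.

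The highest start with both marks was Epop, which encodes a Polycomb-associated elongin-binding protein, at 8.05 for H3K9me3 and 33.9 for H3K27me3, with the summits 383 bp apart. Its WT values were 3.52 and 29.3. Foxd3 came next, and 2610042L04Rik followed at 6.91 and 44.3. Kcnmb2, a potassium channel subunit, had 6.11 and 6.30, Tcfl5, a testis transcription factor, 5.64 and 11.2, Fcgr3, an Fc receptor, 5.32 and 41.2, Sowaha with Gm9945 5.28 and 22.5, Ppm1h, a phosphatase, 5.17 and 14.3, and Gm3594 5.02 and 9.05. Of the 10, 8 had both marks in WT cells, against 36.6% of all KO starts with both marks. In WT cells 2610042L04Rik and Gm3594, from the multi-copy stretch of chromosome 14, had H3K27me3 only.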

How the data were processed

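H3K9me3 and H3K27me3 ChIP-seq peak lists of KO AB17 cells were analysed, with the WT lists of the same marks and the WT Arid1a, Brg1, Ctcf and Rad21 lists beside them. Samples were grouped by their titles, and each group held 1 library. According to the methods of the study, reads were aligned to mm10 with Bowtie2, filtered with SAMtools and Picard, and peaks were called with MACS2 against input, and tool versions are not given in the sources used here. The 2 input libraries entered through the peak calling. That both KO lists share the KO input was inferred from the titles. The deposited lists give 1 summit per peak with the −log10 q-value assigned by the authors' peak caller, no value lying under 1.30, and hold no counts, widths or fold enrichment, so depth is unknown and values were used to rank summits within a list. Calling narrow peaks for broad marks breaks a domain into strings of summits.

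Positions are 1-based in GRCm38, in which 0 summits lay past a chromosome end. Summits at most 1 kb apart counted as shared. The background was the percent of known autosomal bases within 1 kb of a summit of the partner list, over the genome or in the 1 Mb bins of the summits themselves. Bins with at least 50% known bases were kept. GC content and the ratio of observed to expected CpG were taken over 250 bp on each side of a summit, and soft-masked reference bases stood for repeats. Gene starts were the outermost starts of GENCODE vM21 protein-coding genes, with a window of 2 kb. Python 3.11.15 with numpy 2.4.6, pandas 2.3.3 and scipy 1.17.1 was used, and the counting functions were tested on simulated data.

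Named genes were the 10 highest starts for H3K9me3 only, H3K27me3 only and both marks (by the lower value), the 5 highest bins and 3 longest runs of each mark, up to 5 genes of each list by the same order and the 10 genes the study singled out. A few items that this rule selects are not reported here. Members and lists were chosen with earlier results of these data known. Shares carry 95% Wilson intervals. Alternatives changed the distance, the start window, the bin size, the q-value threshold, the list sizes, the chromosomes and the counting of runs.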

Additional observations from a re-analysis of the deposited data

Results flagged for a closer look

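The overlap of the marks fell on opposite sides of the genome background in the genotypes. The ratio of the shared percent to the base share was 0.848 for H3K9me3 and 0.873 for H3K27me3 summits in KO cells, and 1.13 and 1.15 in WT cells. Set against the bases of the same 1 Mb bins, the ratios were 0.826 and 0.846 in KO and 0.811 and 0.823 in WT cells. At gene starts the order was the opposite, with starts carrying both marks at 1.10 times the product of the shares in KO and 0.895 times in WT cells. Starts with H3K27me3 outnumbered starts with H3K9me3 by 1260 in KO cells, and the same difference was -3404 in WT cells. With 1 library per group none of these differences was tested.

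The sex chromosomes entered no comparison above. On X, KO cells had 3034 H3K9me3 summits (18.6 per Mb, against 54.9 on the autosomes) and 388 H3K27me3 summits (2.37 per Mb, against 35.7). On Y they had 512 and 22 (5.81 and 0.250 per Mb). WT cells had 1956 and 811 on X, and 222 and 13 on Y. The copy number of these chromosomes in the line was not examined.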

How the results depend on the processing

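With 1 library per group, no replicate could be left out and no paired analysis was possible because each group has 1 sample. The share of H3K9me3 summits near H3K27me3 was 3.21% within 500 bp, 12.4% within 5 kb, 4.70% with lists of equal size and 4.85% with X and Y, all under the base share of the same setting. The share of H3K27me3 summits near H3K9me3 was 4.97%, 33.4% and 5.29% under the first 3 of these settings, the value for 5 kb lying at the base share of 33.4%. Under a threshold of 5 for the −log10 q-value in either list the shares were 0.833% (52 summits, base share 0.826%) and 0.524% (53 summits, base share 0.501%), and with 1 summit per run, a setting added after the data were seen, 2.90% and 7.36%, so both crossed to the other side of the base share. Against the bases of the same 1 Mb bins these 4 ratios were 0.960, 0.984, 0.975 and 0.975, nearer to 1 than the main ratios of 0.826 and 0.846. The local base shares were 0.868%, 0.532%, 2.97% and 7.55%. Each lay within the Wilson interval of its summit share, so these settings showed no clear departure from the local background. Leaving out the first 10 Mb of chromosome 14, also added later, or summits shared with all 4 factor lists moved neither share beyond its interval.

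The bin correlation was 0.119 in 500 kb bins, 0.206 in 5 Mb bins, 0.0527 under the threshold of 5 and 0.0873 after division by the mean of the chromosome. Starts with both marks, H3K9me3 and H3K27me3 numbered 10, 101 and 1973 under the threshold of 5. Starts with both marks and with H3K9me3 numbered 251 and 1631 within 1 kb, 1805 and 6431 within 5 kb, 429 and 1963 with equal list sizes, and 1245 and 4862 over any transcript start. Starts with both marks stayed at 1.04 to 1.12 times the product of the shares in every setting. The GC difference, H3K27me3 minus H3K9me3, was 4.98 points over 100 bp on each side, 3.80 over 1 kb, 4.79 under the threshold of 5 and 4.79 with 1 summit per run. The repeat difference was -29.2, -25.3, -55.9 and -25.8 points in the same settings. No difference in these values can be separated from read depth, which the lists do not give.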
